A study of Mus musculus with 11 samples.

Results

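The redox defence genes described here are 10 named rows of the merged count table: Gsta4, Gstm1, Gstm2, Gsto1, Gstp1, Gclc, Gclm, Nqo1, Hmox1 and Txnrd1. They were taken by name, out of 18305 genes listed, and followed through all 27 libraries of the series. The wild-type material came from female C57BL/6 mice of 8 to 12 weeks: 3 libraries of bulk oviduct tissue, 3 of bulk ovarian surface epithelium (OSE) tissue, 3 oviductal organoid lines and 2 OSE organoid lines, a further OSE line having been left out by the study for contamination. Another 3 oviductal organoid lines came from mice with a Cas9-P2A-EGFP cassette at ROSA26, driven by the ubiquitous CAG promoter (Cas9-GFP organoids). From such organoids the study made TBP clones by transfection of guide RNAs against several genes, Trp53 and Brca1 among them. Selection was with Nutlin-3a, which spares cells without working p53, and surviving organoids were picked and expanded as clones. The series holds 3 libraries labelled as TBP mutants. The study describes 2 independent clones for each set of mutations, so that some of these 3 libraries may share a clone. The sources used here do not settle this. Below, each of these libraries is called a TBP clone, and n counts libraries. TBP clones injected under the skin of female immunodeficient NSG mice gave the 6 TBP tumors, which were sequenced as whole tissue with the host's stroma in it. Organoids regrown from TBP tumors in medium with Nutlin-3a gave 4 libraries, T1-mes and T3-mes from mesenchymal-looking tumors and T2-epi and T4-epi from glandular ones. The Cas9 and EGFP cassette is therefore shared by the Cas9-GFP organoids, the clones, the tumors and the tumor organoids. The study describes the tumor organoid lines as grown from tumors of one original TBP clone, and T1-mes and T2-epi as coming from adjacent tumors, so that the 4 cultures are not independent clones. For the 6 tumor libraries the sources used here do not give the clone or host of each. Comparisons below that use the same libraries are not independent of each other.

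Glutathione, a tripeptide with a reactive cysteine, is the main small thiol of the cell. Its first and limiting step of synthesis is run by glutamate-cysteine ligase, made of the catalytic subunit Gclc and the modifier Gclm. Glutathione transferases join it to electrophiles: Gsta4 prefers lipid aldehydes such as 4-hydroxynonenal, Gstm1 and Gstm2 are cytosolic mu-class enzymes, Gsto1 is an omega-class enzyme with a cysteine at its active site, and Gstp1 is the pi-class enzyme. Nqo1 reduces quinones, Hmox1 opens heme into biliverdin, iron and carbon monoxide, and Txnrd1 recharges cytosolic thioredoxin. NRF2, encoded by Nfe2l2, is held for degradation by Keap1 and, when released by oxidants or electrophiles, pairs with small MAF proteins on antioxidant response elements near many of these genes. BACH1 competes for the same elements, above all at Hmox1. In epithelia that meet reactive compounds or inflammation, such as those of the oviduct and of the ovary at ovulation, these enzymes are part of the standing defence.

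Library totals ran from 82239 reads in TBP clone 1 to 4531767 in TBP clone 3, and the other 25 libraries held 600579 to 3083507. TBP clone 1 is thus the weakest library: 3 reads, used as the smallest measurable amount, are worth 33.5 CPM there (counts scaled to a common library size with edgeR's TMM factors over the 27 libraries). CPM is the scale of every level below. A count of reads can include amplified copies of one molecule, so that a limit drawn from reads covers counting error only. The labelled tissues were checked against marker genes. Oviduct tissue was rich in the 3 oviduct secretory markers (summed level 72976 to 114370 CPM, mostly Ovgp1) and also held smooth muscle markers (4913 to 5784 CPM) and fibroblast markers (3807 to 7022 CPM). In oviduct tissue the 5 OSE and mesothelial markers summed to 305 to 461 CPM, and 2 of the 4 tested were called higher in OSE tissue. OSE tissue held these 5 markers at 491 to 667 CPM in sum. That was below its granulosa markers at 3353 to 4043 CPM (4 of 5 in the table) and its steroidogenic markers at 6206 to 7611 CPM (all 5). Its epithelial markers summed to 369 to 439 CPM. The OSE libraries therefore contained much RNA of deeper ovarian cells. Mitochondrial genes took 0.729 to 0.855% of the reads in tumors, 6.99 to 8.57% in oviduct tissue, 1.76 to 2.98% in OSE tissue, 15.7 to 19.4% in oviductal organoids, 11.99 and 15.04% in OSE organoids, 8.28 to 11.6% in Cas9-GFP organoids, 4.70 to 10.03% in tumor organoids, and 2.29, 12.9 and 13.4% in TBP clones 1 to 3. RNA of tissues and tumors was extracted with Trizol and RNA of cultures with a column kit, so that culture and extraction cannot be told apart. In guide-edited clones a read near the 3′ end of a transcript does not report on edits in early exons, and levels of the targeted genes check nothing here.

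The members lie on 5 chromosomes of GRCm38. Gstm2 (chr3:107981702-107986453, minus strand) and Gstm1 (chr3:108012255-108017973, minus strand) are neighbours with 25.8 kb between them, and Gclm is on the same chromosome (chr3:122245557-122270732, plus strand). Gclc (chr9:77754535-77794485, plus strand) and Gsta4 (chr9:78182774-78209349, plus strand) are 388.3 kb apart. Hmox1 (chr8:75093621-75100589, plus strand) and Nqo1 (chr8:107388225-107403206, minus strand) share a chromosome, as do Gstp1 (chr19:4035407-4037985, minus strand) and Gsto1 (chr19:47854970-47864790, plus strand). Txnrd1 stands alone at chr10:82833951-82897712 on the plus strand. All 10 are protein-coding genes, and a library of 3′ tags reads mainly their last exon.

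The core of the antioxidant response element, TGACNNNGC on either strand, was searched in RefSeq promoter windows of GRCm38.p6, from 250 bases before to 50 bases after each annotated start. Of 32851 windows in all, 4071 (12.4%) held the core. Windows were found for 7 members, 10 windows in all. Of these 10 windows 2 (20%) held the core, in Gclm and Txnrd1. Gsta4, Gclc and Hmox1 had no window in the table. Both matches are shown because the glutathione synthesis gene and the reductase gene are those of the set whose promoters could be read and held the motif. The core stands in capitals with 10 bases on each side, 134 bases before the start of Gclm (chr3:122245413-122245441, plus strand) and 92 bases before one of the starts of Txnrd1 (chr10:82859104-82859132, plus strand), in both cases as its reverse complement:
Gclm: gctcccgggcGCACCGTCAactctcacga
Txnrd1: ctggatttttGCTTTGTCAttctgacacg
A match in the letters is not a measured binding site. Over the 26 deeper libraries described below, the log2 levels of Gclm and Txnrd1 had a Pearson r of 0.621. Gclm had a higher r with Gclc (0.702) and with Gsta4 (0.656). Neither of these had a window, so whether they hold the core is not known here. Whether the motif has a part in these values was not tested.

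Gstp1 and Nqo1 did not pass the filter on low counts in any comparison, and so had no value in the filtered edgeR fits. Gstp1 had 4 reads in the 27 libraries together and at most 2 in one library. Of the 75-base windows in the last 400 bases of its protein-coding transcripts, 355 of 492 (72.2%) also occur in the neighbouring paralog Gstp2, which lies 2.3 kb away, and the study kept uniquely mapped reads. How much Gstp1 RNA the cells held cannot be read from these counts.
Nqo1 shares none of its 326 windows with another gene and was still rarely counted, with 51 reads in all and 0 reads in 15 libraries. Oviduct tissue gave 9, 1 and 6 reads, which are 6.53, 1.32 and 7.33 CPM. OSE tissue gave 2, 2 and 0 reads, oviductal organoids 0, 0 and 1, OSE organoids and Cas9-GFP organoids 0 in all 5 libraries. Among the other cultures, TBP clone 3 had 9 reads (2.05 CPM) in the deepest library, and T1-mes and T3-mes had 4 and 5 reads while T2-epi and T4-epi had 0. Nqo1 was therefore near the limit of detection throughout, and its largest levels were in oviduct tissue. Between oviductal organoids and oviduct tissue it was called lower in culture by DESeq2 (adjusted p = 0.02605) and by edgeR with no filter (adjusted p = 0.003716), but with 1 read in all 3 organoid lines the size of the fold is not determined. Gstm1 shares 18.2% of its windows with other genes, most often Gstm3, so that part of its reads may have been discarded, while the other 7 members share none.

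**Figure D1:**
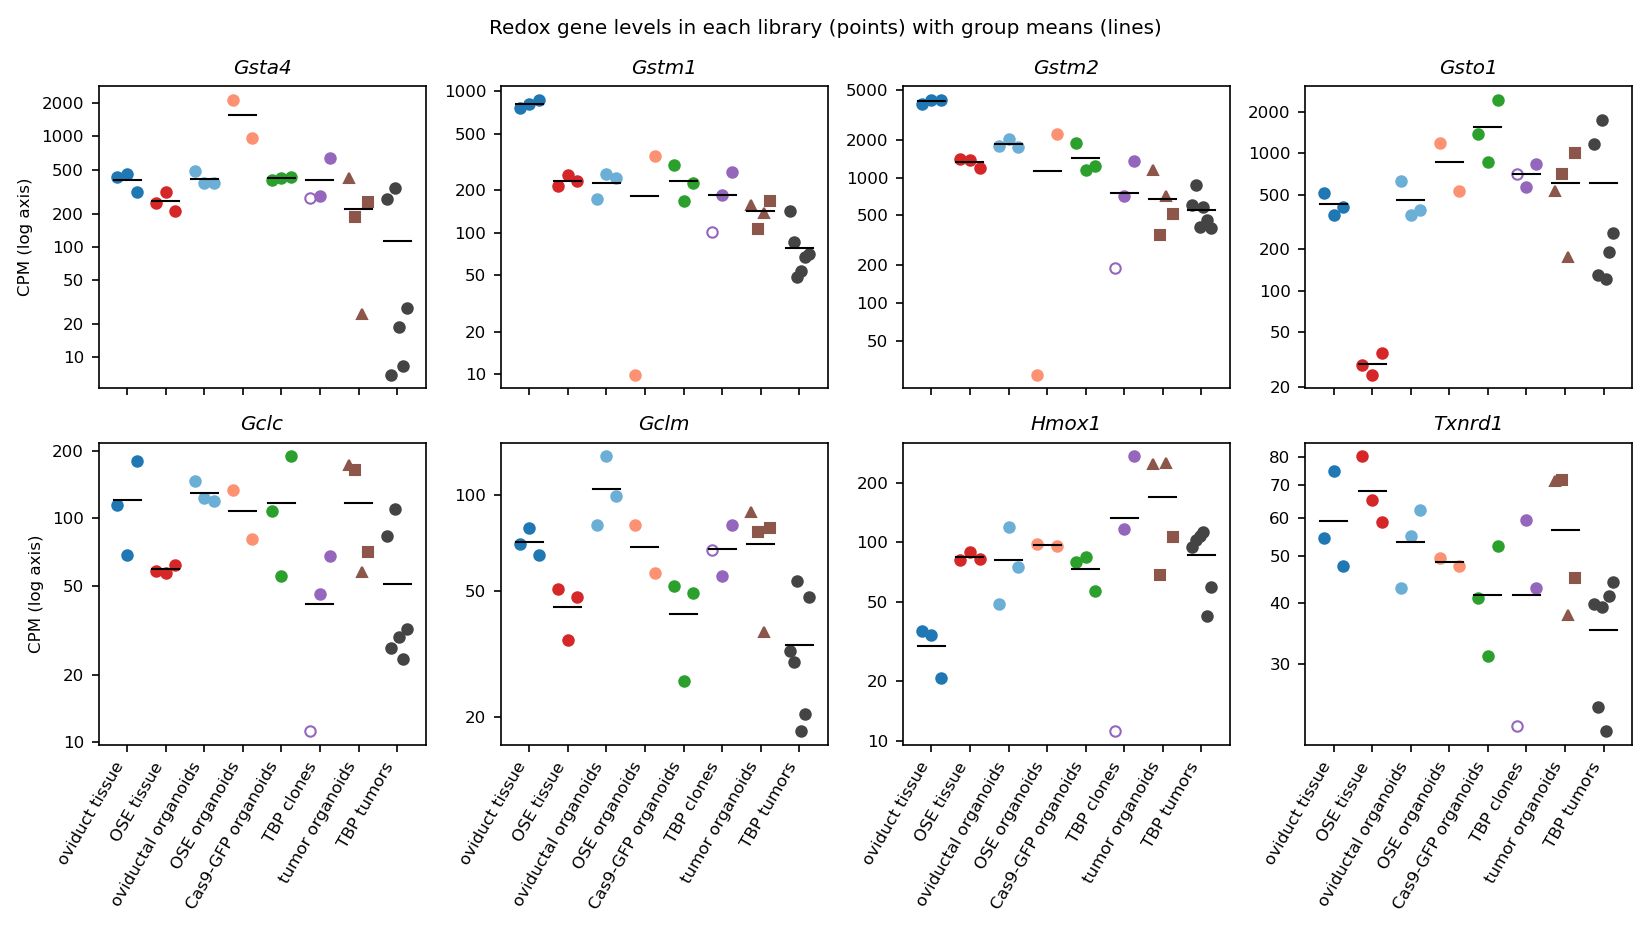
Levels of the 8 members with enough reads, one point per library, in CPM on a log axis. Black lines are group means, the open circle is TBP clone 1, and triangles and squares are mes and epi tumor organoids. Gstm1 and Gstm2 are highest in oviduct tissue and nearly missing in one OSE line, Gsto1 is lowest in OSE tissue, and Gsta4 and Gsto1 split the tumors into a high pair and a low set of 4.

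Across the 26 libraries of at least 500000 reads, Gsta4 varied most, 308-fold between its highest library (OSE organoids 1, 2151 CPM) and its lowest (Tumor2, 6.99 CPM). Gstm2 varied 157-fold, Gsto1 101-fold and Gstm1 88.1-fold. Hmox1 varied 13.0-fold, Gclc 8.03-fold and Gclm 7.39-fold. Txnrd1 was the steadiest, between 21.8 CPM in Tumor4 and 80.4 CPM in OSE tissue 1, a 3.69-fold range. Without OSE organoids 1 the range fell to 138-fold for Gsta4, 18.0-fold for Gstm1 and 12.1-fold for Gstm2, the last below that of Hmox1, and the ranges of the other 5 were the same. In these 25 libraries Gsta4 and Gsto1 had the widest ranges, and Txnrd1 still had the narrowest.

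The first question was whether the 2 epithelia from which ovarian cancer may start differ in redox defence in the animal. In whole tissue, 7 of the 8 tested members differed between oviduct and OSE: the 4 transferases and both subunits of glutamate-cysteine ligase were higher in oviduct tissue, and Hmox1 was lower. The omega-class enzyme Gsto1 differed most, 14.4-fold. These calls were made with edgeR's quasi-likelihood test at a Benjamini-Hochberg adjusted p under 0.05 over 8787 genes, of which 26.9% were called higher and 24.3% lower in oviduct tissue, so that the tissues differed in about every other gene. The median log2 fold change was 0.87 over the members and 0.00 over all genes tested. Gsto1 read 512, 357 and 406 CPM in oviduct tissue and 28.8, 24.5 and 35.03 CPM in OSE tissue (log2 fold change 3.84 ± 0.20 SE, adjusted p = 1.122e-09, n = 3 and 3). The groups did not overlap, as for 59.2% of all genes tested, and the OSE libraries stood near the bottom of the range of this gene.
Both mu-class transferases were also set apart. Gstm1 read 769.8, 821 and 874 CPM in oviduct tissue against 213, 256 and 232 CPM in OSE tissue (1.84 ± 0.16, adjusted p = 1.9e-07). Gstm2 read 3852, 4203 and 4153 CPM against 1423, 1379 and 1204 CPM (1.63 ± 0.17, adjusted p = 1.931e-06). Neither pair of groups overlapped, which also held for 59.2% of all genes tested. For Gsta4 the difference was smaller and the groups touched, with 428, 457 and 314 CPM against 249, 314.4 and 212 CPM (0.66 ± 0.19, adjusted p = 0.009844). It ended without OSE tissue 3, at a log2 fold change of 0.48 and an adjusted p of 0.07374.
In glutathione synthesis, Gclc read 114.6, 68.4 and 179.6 CPM in oviduct tissue and 58.4, 57.1 and 62.1 CPM in OSE tissue (1.05 ± 0.26, adjusted p = 0.003296). Its size leans on oviduct tissue 3, without which the log2 fold change was 0.69 with an adjusted p of 0.0106. Gclm read 70.4, 78.9 and 64.8 CPM against 50.8, 34.9 and 47.8 CPM (0.68 ± 0.20, adjusted p = 0.009325), and the call was lost without OSE tissue 2 (0.54, adjusted p = 0.0509) and in DESeq2 (0.68, adjusted p = 0.05402). Hmox1, the heme oxygenase, ran the other way, at 35.6, 34.2 and 20.8 CPM in oviduct tissue and 81.2, 89.7 and 82.8 CPM in OSE tissue (-1.43 ± 0.21, adjusted p = 5.147e-05), with no overlap. Txnrd1 did not pass the test, at 54.4, 75.0 and 47.7 CPM against 80.4, 65.2 and 58.9 CPM (-0.19 ± 0.21, adjusted p = 0.4854). The granulosa and steroidogenic markers given above moved with these differences, all of them higher in OSE tissue, and the smooth muscle and secretory markers the other way. The 5 epithelial markers were also all called higher in oviduct tissue, with a median log2 fold change of 2.03 and sums of 1542 to 1937 CPM against 369 to 439 CPM. The part of these differences in the result was not tested. In bulk RNA, fewer cells of a type and less RNA per cell cannot be told apart.
Of 70 further genes of the pathway, 54 could be tested, with 21 higher and 14 lower in oviduct tissue (median log2 fold change 0.30). Among the regulators the small MAF genes Mafk (-2.25, adjusted p = 3.868e-07) and Maff (-2.17, adjusted p = 1.469e-05) were lower in oviduct tissue. Slc7a11, which imports cystine for glutathione, was higher (3.05, adjusted p = 3.804e-07), as were the transferase Gstt2 (3.36, adjusted p = 4.012e-08) and the epoxide hydrolase Ephx1 (3.00, adjusted p = 1.585e-08), while malic enzyme Me1 was lower (-3.20, adjusted p = 5.581e-09).

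The second question was how far organoids keep the redox profile of the tissue. In oviductal organoids the mu-class transferases fell and Hmox1 rose against oviduct tissue, and the other 5 tested members did not pass the test. The 3 calls among 8 members compare with 18.7% of 9477 genes called higher in organoids and 24.2% called lower. The median log2 fold change was 0.06 over the members and -0.02 over all genes. Gstm1 read 173, 262 and 245 CPM in the 3 oviductal organoid lines, below the 769.8 to 874 CPM of the tissue (-1.88 ± 0.20, adjusted p = 1.528e-05, n = 3 and 3). Gstm2 read 1789.98, 2051 and 1755 CPM against 3852 to 4203 CPM (-1.14 ± 0.16, adjusted p = 0.0001318). Neither overlapped the tissue, as was the case for 54.6% of all genes tested. When all 27 libraries shared one fit, the call on Gstm2 was lost (-1.16, adjusted p = 0.2635).
Hmox1 read 48.6, 119 and 75.5 CPM in the organoids, each above the 20.8 to 35.6 CPM of oviduct tissue (1.38 ± 0.34, adjusted p = 0.006417). Gsta4 stayed at 488, 379 and 376 CPM (0.03 ± 0.18, adjusted p = 0.8985) and Gsto1 at 634, 354 and 389.8 CPM (0.09 ± 0.22, adjusted p = 0.7699), both overlapping the tissue. Gclc read 147, 123 and 120.1 CPM (0.09 ± 0.28, adjusted p = 0.8332) and Txnrd1 42.9, 55.0 and 62.3 CPM (-0.16 ± 0.25, adjusted p = 0.6438). Gclm read 80.6, 133 and 99.7 CPM, all above the tissue, yet missed the threshold (0.53 ± 0.23, adjusted p = 0.08241). It passed without oviductal organoids 1, at 0.72 with an adjusted p of 0.01171. Smooth muscle and fibroblast markers, plentiful in the tissue, were at 5.25 CPM or below in sum in these organoids, while epithelial markers summed to 4358 to 5501 CPM against 1542 to 1937 CPM in the tissue. The part of this in the falls of Gstm1 and Gstm2 was not tested. Among 59 further pathway genes tested, 23 were higher and 7 lower in organoids (median 0.31). They included a rise of Maff (3.68, adjusted p = 2.302e-05) and of Gsr, the glutathione reductase (1.67, adjusted p = 0.000185), and falls of the transferase Gstm7 (-1.73, adjusted p = 0.001681) and of Slc7a11 (-3.71, adjusted p = 0.0001171).

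In OSE organoids the picture against their tissue was different, with 3 members higher and none lower: Gsto1 by 29.3-fold, Gsta4 by 6.05-fold and Gclc by 1.82-fold. Among 10232 genes tested, 14.5% were called higher and 18.6% lower in the organoids, and the median log2 fold change was 0.42 over the members and -0.06 over all genes. Gsto1 read 1194 and 532 CPM in OSE organoids 1 and 2, against at most 35.03 CPM in OSE tissue (4.87 ± 0.40, adjusted p = 0.0005194, n = 2 and 3). Gsta4 read 2151 and 963 CPM against 212 to 314.4 CPM (2.60 ± 0.39, adjusted p = 0.003425). Both lines were far above every OSE tissue library for these 2 genes, and without OSE organoids 1 the log2 fold changes were 4.20 and 1.97. Of all genes tested, 59.6% had no overlap between these groups. Gclc read 134 and 81.1 CPM against 57.1 to 62.1 CPM (0.87 ± 0.27, adjusted p = 0.04515), a call that was lost in DESeq2 (0.85, adjusted p = 0.08734), without OSE organoids 1 (0.51, adjusted p = 0.07536) or without any one of the OSE tissue libraries (0.85 to 0.88, adjusted p from 0.1399 to 0.1525).
The 2 OSE lines differed in the mu-class transferases. Gstm1 read 9.92 CPM in OSE organoids 1, from 13 reads, and 352 CPM in OSE organoids 2, from 694 reads. Gstm2 read 26.7 CPM, from 35 reads, and 2252 CPM, from 4446 reads. The first line was thus nearly without both enzymes while the second exceeded every OSE tissue library, and over both lines neither gene passed the test (Gstm1 -0.32 ± 1.05, adjusted p = 0.8424, and Gstm2 -0.18 ± 1.26, adjusted p = 0.9263). With OSE organoids 1 alone in that group, Gstm1 was at -4.54 (adjusted p = 1.583e-16) and Gstm2 at -5.64 (adjusted p = 2.148e-20). With OSE organoids 2 alone they were at 0.65 (adjusted p = 0.01253) and 0.82 (adjusted p = 0.004029). In these fits the lone line is assumed to vary like the tissue libraries, and the number of members called went from 3 to 6 without OSE organoids 2 and to 4 without OSE organoids 1. Other markers split the lines as well: the oviduct secretory markers summed to 62.6 CPM in the first line and 3422 CPM in the second (Ovgp1 19.1 and 3243 CPM, Pax2 0 in both), and the OSE and mesothelial markers to 2248 and 549.6 CPM (Msln 2030.1 and 409 CPM, Upk3b 0 in both). Among other transferases, Gsta3 read 1491.2 CPM in the first line and 156.5 CPM in the second. The part of such differences in the mu-class values was not tested.
Gclm read 80.9 and 56.7 CPM (0.64 ± 0.28, adjusted p = 0.1288), and it passed without OSE organoids 2 (0.85, adjusted p = 0.006563). Hmox1 read 97.7 and 95.2 CPM, above the 81.2 to 89.7 CPM of the tissue but with 0.21 ± 0.21 and an adjusted p of 0.4807. Txnrd1 read 49.6 and 47.6 CPM (-0.47 ± 0.26, adjusted p = 0.2131). Of 62 further pathway genes tested, 23 were higher and 6 lower in OSE organoids (median 0.74), among them rises of Nfe2l2 itself, which encodes NRF2 (2.28, adjusted p = 0.005838), of the transferase Gsta3 (6.38, adjusted p = 0.003181), of Gsr (3.09, adjusted p = 0.001058) and of Ephx1 (3.84, adjusted p = 0.001134). The granulosa and steroidogenic markers, plentiful in OSE tissue, were each at 13.2 CPM or below in sum in the organoids. All 5 epithelial markers were called higher in culture, with a median log2 fold change of 3.89 and sums of 5479 to 6056 CPM against 369 to 439 CPM. The part of either in these changes was not tested.

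An interaction term compared the culture effect of oviduct with that of OSE. It passed for 2 of the 8 members. The culture effect on Gsto1 was lower in oviduct by 4.66 on the log2 scale (difference -4.66 ± 0.46, adjusted p = 8.216e-05), and that on Gsta4 by 2.46 (difference -2.46 ± 0.41, adjusted p = 0.002919). Of 11458 genes, 5.0% had a higher and 6.68% a lower culture effect in oviduct, and the median over the members was -0.77 against 0.04 over all genes. Without OSE organoids 1 the values were -4.00 and -1.81, both still past the threshold. Gsto1, called higher in oviduct than in OSE tissue, had overlapping levels in oviductal organoids (459 ± 152 CPM, SD) and OSE organoids (863 ± 468 CPM). Gsta4, which touched between the tissues, stood apart between the organoids (414 ± 63.9 and 1557 ± 840 CPM), though that difference was not called. In the same term all 5 epithelial markers were called with a lower culture effect in oviduct (median -2.44), and their part in the result was not tested. For Hmox1 the difference of 1.29 ± 0.46 missed the threshold (adjusted p = 0.0927) and passed without oviductal organoids 1 (1.57, adjusted p = 0.02365). For Gstm1 and Gstm2 the term depended wholly on the OSE line: it was -2.41 and -1.84 without OSE organoids 1 and 2.78 and 4.61 without OSE organoids 2, and 4 members were called in either case. Among the other pathway genes tested, 3 of 64 had a higher and 12 a lower culture effect in oviduct.

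**Figure D2:**
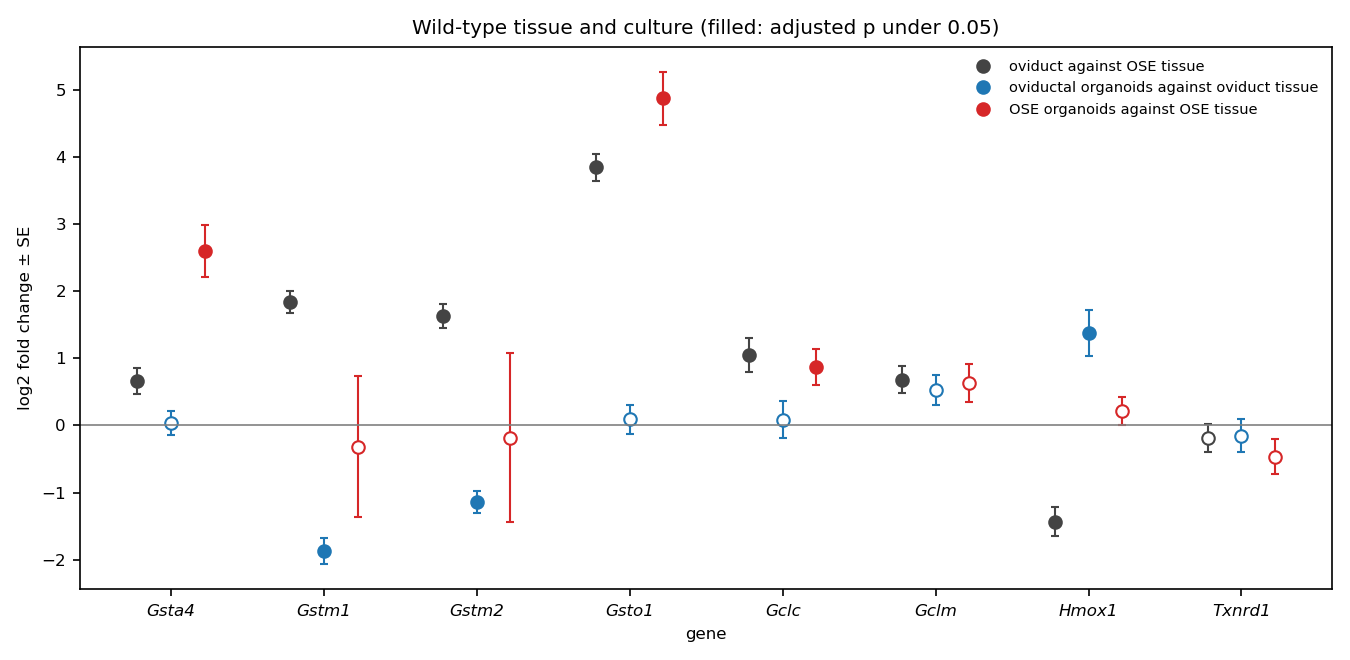
Log2 fold changes of the 8 tested members with their standard errors in 3 comparisons of wild-type material, filled where the adjusted p was under 0.05. Gsto1 is 3.84 higher in oviduct than OSE tissue and rises by 4.87 when OSE is cultured, while the wide bars of Gstm1 and Gstm2 in OSE organoids belong to the 2 lines that differ.

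Set side by side in culture, oviductal and OSE organoids were not separated by any of the 8 members in edgeR, where 0.0864% of 9257 genes were called higher and 0% lower in oviductal organoids. At an unadjusted p under 0.05 there was 1 member, and DESeq2 called 1, in both cases Gsta4. Of the 9257 genes, 598 were higher and 462 lower in oviductal organoids at that unadjusted p. The groups did not overlap for 29.7% of all genes tested, Gsta4 among them. Gsta4 was lower in all 3 oviductal lines (376 to 488 CPM) than in both OSE lines (963 and 2151 CPM), with a log2 fold change of -1.88 ± 0.37 SE and an adjusted p of 0.1652. With 1 OSE line left, whose spread is then taken from the oviductal lines, it passed without OSE organoids 1 (-1.21, adjusted p = 0.02656) and without OSE organoids 2 (-2.34, adjusted p = 9.178e-05). Without OSE organoids 2, Gstm1 (4.54), Gstm2 (6.16) and Gsto1 (-1.34) passed as well, which gave 4 members. Gsto1 over both lines was at -0.88 ± 0.41 (adjusted p = 0.4825), Gstm1 at 0.33 ± 1.07 (adjusted p = 0.9391) and Gstm2 at 0.72 ± 1.29 (adjusted p = 0.8881). Gclc (0.31 ± 0.30), Gclm (0.63 ± 0.33), Hmox1 (-0.23 ± 0.40) and Txnrd1 (0.16 ± 0.29) missed the threshold with adjusted p from 0.5253 to 0.8914. The median was 0.23 over the members and 0.01 over all genes, and 0 of 58 further pathway genes passed.

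The Cas9-GFP organoids are the starting point of the edited lines and differ from the C57BL/6 lines in mouse strain and cassette. Gsto1 was higher in them, 3.44-fold, and Gclm lower, 2.38-fold. These 2 of 8 members stand beside 13.0% of 8323 genes called higher and 13.3% called lower, with a median of -0.12 over the members and 0.00 over all genes. Gsto1 read 1381, 867 and 2463 CPM against 354 to 634 CPM in C57BL/6 organoids (1.78 ± 0.33, adjusted p = 0.002028, n = 3 and 3), and Gclm read 51.6, 25.9 and 49.2 CPM against 80.6 to 133 CPM (-1.25 ± 0.28, adjusted p = 0.006541). Neither overlapped, as was the case for 42.4% of all genes tested. The catalytic partner Gclc did not follow Gclm, at 108, 55.3 and 189.3 CPM (-0.12 ± 0.32, adjusted p = 0.8198).
Gsta4 was the most even, at 404, 421 and 434 CPM (0.03 ± 0.17, adjusted p = 0.9204). Gstm1 read 302, 167.5 and 225 CPM (0.04 ± 0.23, adjusted p = 0.9118) and Gstm2 1880.3, 1164 and 1251 CPM (-0.38 ± 0.20, adjusted p = 0.182). Hmox1, at 79.3, 84.6 and 56.7 CPM (-0.13 ± 0.31), and Txnrd1, at 41.1, 31.1 and 52.4 CPM (-0.33 ± 0.26), also missed the threshold (adjusted p = 0.7998 and 0.3868). Oviduct secretory markers summed to 234 to 247 CPM in the Cas9-GFP lines and to 14829 to 23131 CPM in the C57BL/6 lines, a difference whose part in the result was not tested. Of 57 other pathway genes tested, 11 were higher and 14 lower, with Gsta3 (3.41) and Slc7a11 (3.05) among the higher and the secreted peroxidase Gpx3 (-3.86) and Gstt1 (-3.02) among the lower.

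No member was called between the TBP clones and the Cas9-GFP lines, where few genes of any kind passed and TBP clone 1 held 82239 reads. With 3 libraries in each group edgeR called 0 of 8, with 2 at an unadjusted p under 0.05 (Gsto1 and Gclc), and DESeq2 called 0. At that unadjusted p, 392 of 7708 genes were higher and 375 lower in the clones. Over 7708 genes, 0.389% were called higher and 0.428% lower in the clones, so that 0 of 8 does not set the members apart. The median was -0.13 over the members and -0.01 over all genes. The groups did not overlap for 2 of the 8 members, Gsto1 and Gclm, and for 17.6% of all genes tested. Gsto1 read 704, 568 and 843 CPM in the clones, below the 867 to 2463 CPM of the Cas9-GFP lines (-1.12 ± 0.42, adjusted p = 0.3553). Gclc read 11.2, 46.1 and 67.5 CPM (-1.23 ± 0.47, adjusted p = 0.3883), but the first of these rests on 1 read. In TBP clone 1 Hmox1 also rests on 1 read and Txnrd1 on 2, all under the floor of 3 reads.
Hmox1 was the member that spread most among the 2 deeper clones, with 117 CPM in TBP clone 2 and 271 CPM in TBP clone 3, the highest level of any library (1.06 ± 0.53, adjusted p = 0.5448). Gsta4 read 279, 289 and 639 CPM (-0.02 ± 0.37), and Gclm 67.0, 55.7 and 80.8 CPM (0.68 ± 0.38, adjusted p = 0.6097), each above the Cas9-GFP lines. Gstm1 read 100.6, 184 and 269 CPM and Gstm2 189.9, 721 and 1361 CPM, in both cases lowest in TBP clone 1 and highest in TBP clone 3. With Txnrd1 (22.3, 59.5 and 42.9 CPM) they had adjusted p from 0.6274 to 0.9274. Leaving out any 1 of the 6 libraries gave no call either. Of the other pathway genes tested, 1 of 55 rose, Gstt1 (3.36, adjusted p = 0.02825).

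The tumor organoids were compared as 2 mes against 2 epi cultures. The mes cultures hold fibroblast-like cells beside epithelial organoids, as the fibroblast markers show: they summed to 3120 CPM in T1-mes and 7532 CPM in T3-mes, against 31.3 CPM in T2-epi and 101 CPM in T4-epi. T3-mes also had few epithelial markers, 253 CPM in sum, while the other 3 cultures had 2719 to 3531 CPM. No member passed in edgeR, against 1.0% of 9775 genes called higher and 0.123% called lower in mes cultures. At an unadjusted p under 0.05 there were 2 members, beside 883 of the 9775 genes higher and 495 lower. DESeq2 gave 1 call, Hmox1. The groups did not overlap for 47.6% of all genes tested.
Hmox1 read 249 CPM in T1-mes and 251 CPM in T3-mes, against 68.4 CPM in T2-epi and 106.8 CPM in T4-epi (1.52 ± 0.37, adjusted p = 0.1329, n = 2 and 2). The 2 mes cultures were nearly equal and both above the epi cultures. It passed without T1-mes (1.5, adjusted p = 0.04946). Gstm2 was likewise higher in both mes cultures, at 1146 and 719.9 CPM against 346 and 514 CPM (1.12 ± 0.41, adjusted p = 0.2996), while Gstm1 overlapped, at 158 and 139 CPM against 106.4 and 167 CPM.
For Gsta4 the mes cultures disagreed, with 418 CPM in T1-mes and 24.7 CPM in T3-mes, around the 189 and 255 CPM of the epi cultures (-0.01 ± 1.08, adjusted p = 0.9981). Gsto1 read 532 and 175 CPM against 707 and 1012 CPM (-1.28 ± 0.57, adjusted p = 0.3894). T3-mes was the lowest of the 4 in Gsta4, Gsto1, Gclc (57.7 CPM against 70.8 to 174 CPM), Gclm (36.9 CPM against 76.5 to 88.4 CPM) and Txnrd1 (37.8 CPM against 45.1 to 71.7 CPM). With T3-mes as the lone mes culture, Gsta4 (-3.18, adjusted p = 0.004322) and Gsto1 (-2.32, adjusted p = 0.01184) passed with Hmox1, 3 members in all, the lone culture being assumed to vary like the epi pair. Over all 4 cultures Gstm1, Gclc, Gclm and Txnrd1 had log2 fold changes between -0.31 and 0.12 and adjusted p from 0.8259 to 0.9899. The median was -0.02 over the members and 0.02 over all genes. Of the other pathway genes, 1 of 60 was called: Sod3, the extracellular superoxide dismutase, read 202 and 201 CPM in the mes cultures and 2.37 and 1.46 CPM in the epi cultures (6.68, adjusted p = 0.02362).

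The last question was how the redox genes of the tumors compare with their cells of origin, with organoids regrown from such tumors and with normal oviduct. These 3 comparisons share the tumor libraries. Against oviduct tissue, 5 of 8 members differed: Gstm1, Gstm2, Gclm and Txnrd1 were lower in tumors and Hmox1 was higher. Of 10827 genes, 23.7% were called higher and 22.4% lower, and the median was -1.19 over the members and 0.08 over all genes. Gstm1 ranged from 48.4 to 143 CPM in the 6 tumors with a median of 69.0 CPM, against 769.8 to 874 CPM in oviduct (-3.44 ± 0.30, adjusted p = 2.83e-05, n = 6 and 3). Gstm2 ranged from 395 to 883 CPM with a median of 521 CPM, against 3852 to 4203 CPM (-2.92 ± 0.25, adjusted p = 2.557e-05). All 6 tumors were below all 3 oviduct libraries in both genes, and 45.1% of all genes tested likewise had no overlap. Cell type markers moved with this comparison: all 4 myeloid markers tested were called higher in tumors (sums of 173 to 656 CPM against 53.7 to 67.2 CPM), and all 3 secretory, 4 of 5 smooth muscle and all 3 ciliated markers tested were called lower. With the mitochondrial share given above, their part in the result was not tested.
Hmox1 ranged from 42.6 to 113 CPM in the tumors with a median of 98.8 CPM, above every oviduct library (1.48 ± 0.36, adjusted p = 0.007787). Gclm ranged from 18.0 to 53.5 CPM with a median of 31.0 CPM (-1.11 ± 0.33, adjusted p = 0.02084), and Txnrd1 from 21.8 to 44.2 CPM with a median of 39.6 CPM (-0.77 ± 0.26, adjusted p = 0.03518), both below every oviduct library. Both calls were lost without oviduct tissue 1 (Gclm -1.14, adjusted p = 0.05879, and Txnrd1 -0.85, adjusted p = 0.06717) or without oviduct tissue 2 (Gclm -1.03, adjusted p = 0.07698, and Txnrd1 -0.57, adjusted p = 0.168), which left 3 members, and that of Txnrd1 also without Tumor2 (-0.69, adjusted p = 0.05465). Gclc missed the threshold (-1.27 ± 0.53, adjusted p = 0.07384) and passed without Tumor3 (-1.68, adjusted p = 0.01239), which gave 6 members. Gsta4 (-1.84 ± 1.09, adjusted p = 0.1876) and Gsto1 (0.49 ± 0.87, adjusted p = 0.6657) overlapped the tissue and did not pass. Of 62 other pathway genes tested, 15 were higher and 17 lower in tumors, with falls of Gstm7 (-5.27), Gstt2 (-4.16) and Ephx1 (-2.93) and rises of Glrx (2.82) and Mafg (2.31).

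Against the TBP clones 1 member fell, Gstm1 (-1.32 ± 0.38, adjusted p = 0.02167, n = 6 and 3), beside 20.1% of 10473 genes called higher and 11.7% called lower in tumors. Here the median of all genes lay at 0.16 and moved to 0.29 under RLE scaling, against -0.64 over the members. The call on Gstm1 was lost without TBP clone 2 (-1.33, adjusted p = 0.06501) and without TBP clone 3 (-0.94, adjusted p = 0.1387), and the groups overlapped. All 6 fibroblast markers, all 4 smooth muscle and all 3 endothelial markers tested and 3 of 4 myeloid markers were called higher in tumors, and the mitochondrial share was lower in tumors than in every clone. The 5 epithelial markers had a median log2 fold change of -2.03, with 0 called, and the 2 secretory markers tested were called lower. The part of these in the fall of Gstm1 was not tested. Gclm was lower in all 6 tumors than in the 3 clones, a comparison in which 34.2% of all genes tested did not overlap. Gclm missed the threshold (-1.02 ± 0.38, adjusted p = 0.06022), and passed without Tumor3 (-1.22, adjusted p = 0.02497). Gsta4 (-1.85 ± 1.08), Hmox1 (-0.78 ± 0.55), Gstm2 (-0.50 ± 0.49), Txnrd1 (-0.39 ± 0.34), Gsto1 (-0.21 ± 0.83) and Gclc (0.07 ± 0.59) had adjusted p from 0.2151 to 0.949. Of 60 other pathway genes, 8 rose and 14 fell, among them falls of carbonyl reductase Cbr1 (-3.82) and Me1 (-2.86).

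Against the 4 tumor organoids 2 members fell by a narrow margin, Gclm (-1.04 ± 0.35, adjusted p = 0.04811) and Gstm1 (-0.86 ± 0.29, adjusted p = 0.04864), where 15.1% of 10605 genes were called higher and 12.3% lower in tumors. The median was -0.90 over the members and 0.02 over all genes. Leaving out 1 library ended the call on Gstm1 for all of the 10 libraries but Tumor1 and T2-epi (adjusted p from 0.06101 to 0.1189) and the call on Gclm for 7 of them, namely Tumor1, Tumor2, Tumor4, Tumor5, T1-mes, T2-epi and T4-epi (adjusted p from 0.08289 to 0.1159). The number of members called was 0 without Tumor2, Tumor4, Tumor5, T1-mes or T4-epi, and 1 without Tumor1 or Tumor6. Without Tumor3, Gclc passed (-1.58, adjusted p = 0.03271), without T2-epi Hmox1 passed (-1.20, adjusted p = 0.04009), and without T3-mes Txnrd1 passed (-0.83, adjusted p = 0.03783). Over all libraries Gclc was at -1.17 ± 0.52 (adjusted p = 0.1188), Hmox1 at -0.94 ± 0.40 (adjusted p = 0.1052) and Txnrd1 at -0.67 ± 0.27 (adjusted p = 0.0883). Gsto1 (0.01 ± 0.83), Gsta4 (-0.94 ± 1.11) and Gstm2 (-0.28 ± 0.34) were not separated. All 3 endothelial and all 3 smooth muscle markers tested and 3 of 4 myeloid markers were called higher in tumors. The 5 epithelial markers had a median log2 fold change of -1.63, with 0 called. The part of these markers was not tested. Of 60 other pathway genes, 6 rose and 13 fell in tumors.

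**Figure D3:**
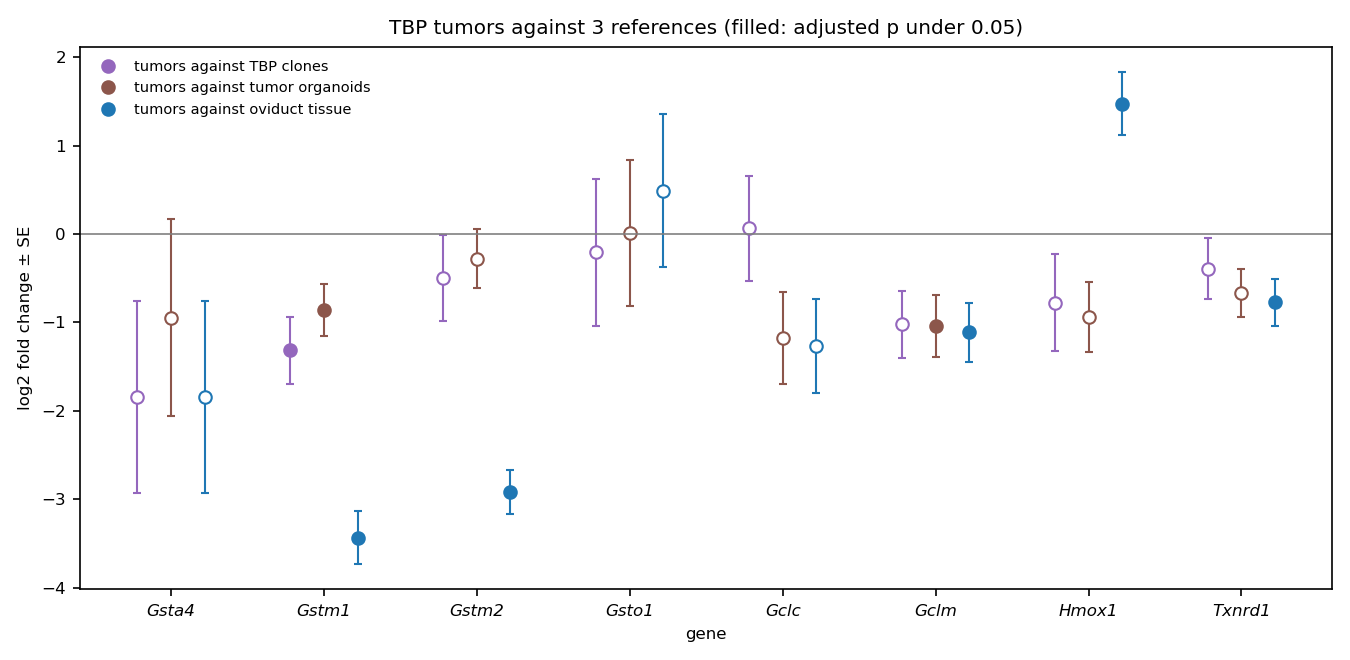
Log2 fold changes of the 8 tested members with their standard errors for the 6 TBP tumors against 3 references, filled where the adjusted p was under 0.05. Gstm1 lies below 0 and is filled in all 3, which share the tumor libraries. Gsta4, Gstm2, Gclm and Txnrd1 also lie below 0 in all 3, but are not filled in each. Hmox1 is above 0 against oviduct tissue only, and the bars of Gsta4 and Gsto1 are widest, the genes in which the tumors split.

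The wide errors of Gsta4, Gsto1 and Gclc in the tumors had a common shape. Gsta4 read 271 CPM in Tumor1 and 340.5 CPM in Tumor3, and 6.99, 18.9, 8.39 and 28.2 CPM in Tumor2, Tumor4, Tumor5 and Tumor6. Gsto1 read 1169 and 1752 CPM in Tumor1 and Tumor3, and 130.2, 122, 192 and 262 CPM in the others. Gclc read 83.0 and 110.1 CPM in these tumors, and 26.2, 29.3, 23.6 and 31.9 CPM in the others. Tumor1 and Tumor3 were the highest of the 6 for all 3 genes. They were also the tumors richest in the 5 epithelial markers, with a summed level of 1902 and 2493 CPM against 162 to 379 CPM, and the culture T3-mes, with 253 CPM of these markers, had 24.7 CPM of Gsta4 and 175 CPM of Gsto1. Fibroblast markers summed to 23909 and 15137 CPM in Tumor1 and Tumor3 and to 9650 to 56973 CPM in the other 4, which overlap. The part of epithelial content in the levels of these genes was not tested.
The remaining members did not split the tumors this way. Gstm1 read 143 CPM in Tumor1 but 48.4 CPM in Tumor3, its lowest. Gstm2 was highest in Tumor2 at 883 CPM, a tumor with 260.4 CPM of epithelial markers. Hmox1 read 94.4 and 108 CPM in Tumor1 and Tumor3, within the 42.6 to 113 CPM of the other 4.

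**Figure D4:**
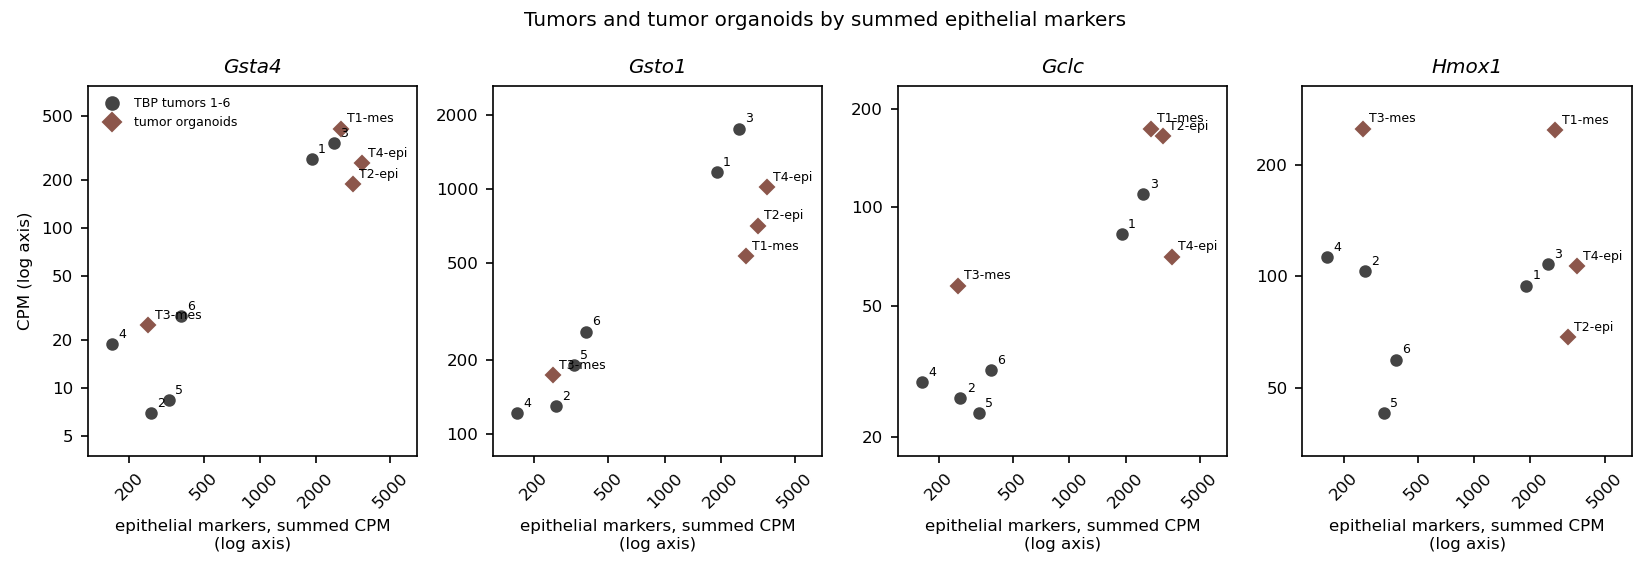
Levels of Gsta4, Gsto1, Gclc and Hmox1 in the 6 TBP tumors (circles, by tumor number) and the 4 tumor organoids (diamonds) against the summed level of the 5 epithelial markers, both in CPM on log axes. Libraries low in epithelial markers are low in Gsta4 and Gsto1, whereas Hmox1 in T3-mes (251 CPM) is as high as in T1-mes (249 CPM).

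Ordered by group mean, the members had different summits. Gsta4 was highest in OSE organoids (1557 ± 840 CPM, SD, n = 2), above the Cas9-GFP organoids, which did not overlap them, and every further neighbour in its order overlapped, down to the tumors at 112 ± 152 CPM. Gstm1 and Gstm2 were highest in oviduct tissue (822 ± 51.9 and 4069 ± 189.8 CPM, n = 3), clear of the next group, and all later neighbours overlapped. Gsto1 was highest in Cas9-GFP organoids (1570.0 ± 815 CPM, n = 3) and lowest in OSE tissue (29.4 ± 5.32 CPM, n = 3), and that last step was its only one without overlap.
Gclc was highest in oviductal organoids (130.0 ± 15 CPM) and lowest in TBP clones (41.6 ± 28.4 CPM), with a gap only between OSE organoids and OSE tissue. Without TBP clone 1, where Gclc had 1 read, the clone mean was 56.8 CPM and the tumors were lowest (50.7 ± 36.6 CPM). Gclm was highest in oviductal organoids (104 ± 26.4 CPM), clear of oviduct tissue (71.4 ± 7.14 CPM), with a second gap between TBP clones and OSE tissue, and lowest in tumors (33.6 ± 14.4 CPM, n = 6). Hmox1 was highest in tumor organoids (169 ± 95.2 CPM, n = 4) and lowest in oviduct tissue (30.2 ± 8.17 CPM), which stood clear of every other group except the clones, where TBP clone 1 had 1 read. Without that clone the mean of the other 2 clones was 194 CPM, the highest of the groups. Txnrd1 ran from OSE tissue (68.2 ± 11 CPM) to tumors (35.1 ± 9.51 CPM), and all neighbours in its order overlapped.

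Over the 26 libraries of at least 500000 reads, the log2 levels of Gstm1 and Gstm2 had a Pearson r of 0.936, the closest of any pair of members, and each was the other's nearest gene among 6330. The next were Gclc with Gsta4 (0.734) and Gclc with Gclm (0.702), the 2 subunits of 1 enzyme, then Gsta4 with Gclm (0.656) and Gclm with Txnrd1 (0.621). Hmox1 had r between -0.346 and 0.0152 with the other members. Libraries share preparation and cell type here, so that these values describe the set and carry no test. Outside the members, the genes most like each were Prr15l and Eya2 for Gsta4 (0.943 and 0.91), Fermt1 and Cldn2 for Gsto1 (0.922 and 0.92), Ppp2r2b and Elovl5 for Gclc (0.809 and 0.804), Mavs and Ddt for Gclm (0.807 and 0.803), Vps37a and Vegfa for Hmox1 (0.85 and 0.771), Ruvbl2 and Lin7c for Txnrd1 (0.771 and 0.747), Chic1 for Gstm1 (0.825) and Smtn for Gstm2 (0.864). The ratio of Gstm2 to Gstm1 reads was between 2.69 and 10.8 in these libraries, with a median of 5.58, and the lowest was OSE organoids 1, where both were nearly absent. That library also had the lowest level of both genes, 9.92 CPM of Gstm1 and 26.7 CPM of Gstm2. The r of Gstm1 with Gstm2 without it was not computed.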

How the data were processed

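CEL-Seq2 libraries, which read transcripts near their 3′ end, were sequenced on a NextSeq500. The authors aligned the reads to GRCm38 with BWA (version not given in the sources used here) and deposited raw counts per gene for each library: uniquely mapped reads in the transcript direction, not collapsed by unique molecular identifier. A spike-in row with 1 count was left out. Libraries were grouped by the labels. The members and gene lists were chosen with earlier results of these data known.

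Each comparison was fitted on its own libraries in edgeR 4.0.16 (R 4.3.3), using TMM factors, the filterByExpr default and a quasi-likelihood F test, and Benjamini-Hochberg correction ran over every gene tested (threshold 0.05). This replaces DESeq2, which the authors used. SE is the log2 fold change divided by the square root of F. Each p-value sets a group difference against the spread between these libraries, not all of which are independent. Of 37 pairs of libraries within groups, the lowest chi-square per degree of freedom was 2.53, above counting error. Alternatives were DESeq2 1.42.0, RLE factors, no filter, a fit of all 27 libraries, a replicate block and leaving out each library.

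All 8 tested members were described in each comparison. Of 5 further pathway lists, up to 2 called genes per list and comparison with the largest change and a mean of at least 20 CPM could be named, and the 2 genes most like each member by r. Figures were drawn with matplotlib 3.10.9. The shared-window search used GENCODE vM21 and promoters came from RefSeq.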

Additional observations from a re-analysis of the deposited data

Results flagged for a closer look

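The culture effect differed between oviduct and OSE for 2 members, by a test of the difference itself (edgeR's interaction term, 11 libraries). For Gsto1 the log2 difference, oviduct minus OSE, was -4.66 (adjusted p = 8.216e-05), and its direction was kept without any 1 of the 11 libraries. For Gsta4 it was -2.46 (adjusted p = 0.002919), likewise kept. In OSE the change runs from tissue with much granulosa and steroidogenic marker RNA to lines without it, and all 5 epithelial markers were called with a lower culture effect in oviduct (median -2.44). The part of either was not tested.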

How the results depend on the processing

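Of 295 alternative values of the 25 member values called, 250 kept the call, 45 no longer passed and 0 changed direction. Fitted with all 27 libraries, the members called were 3 in place of 7 between the tissues, 2 in place of 3 for oviductal culture, 1 in place of 3 for OSE culture, 1 in place of 2 for Cas9-GFP organoids, 2 in place of 1 for tumors against clones and 1 in place of 2 for the difference in culture effect. With no filter on low counts they were 5 in place of 3 for oviductal culture, Nqo1 among them (adjusted p = 0.003716), 1 in place of 0 for oviductal against OSE organoids and 0 in place of 2 for tumors against tumor organoids, where RLE factors gave 1. DESeq2 gave 6 in place of 7 between the tissues (without Gclm), 4 in place of 3 for oviductal culture (with Nqo1), 2 in place of 3 for OSE culture (without Gclc), and 1 in place of 0 for oviductal against OSE organoids (Gsta4) and for mes against epi cultures (Hmox1). Leaving out each library in turn gave 6 to 7 members between the tissues, 3 to 4 for oviductal culture, 2 to 6 for OSE culture, 0 to 4 between the organoids, 2 to 2 for Cas9-GFP, 0 to 0 for clones, 0 to 3 for mes against epi, 0 to 2 for tumors against clones, 0 to 2 against tumor organoids, 3 to 6 against oviduct and 2 to 4 for the difference in culture effect. The causes were not tested.

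Over all genes, the fit of 27 libraries called 2970 in place of 4495 between the tissues, 251 in place of 8 between the organoids, 1114 in place of 2189 for Cas9-GFP, 555 in place of 110 for mes against epi, 5251 in place of 3333 and 4450 in place of 2911 for tumors against clones and tumor organoids, and 671 in place of 1338 for the difference in culture effect. DESeq2 called 269 between the organoids, 115 in place of 63 for clones and 505 for mes against epi, and no filter called 116, 372 and 283. Leaving out 1 library gave 1768 to 5750 in place of 3387 for OSE culture, 0 to 1448 between the organoids, 1450 to 2332 for Cas9-GFP, 3 to 208 for clones, 0 to 1458 for mes against epi and 828 to 2325 for the difference in culture effect.

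Same-numbered libraries deviated together only weakly (correlations 0.00985 to 0.135), so the numbers were not taken as pairs. With a replicate block 7 members were called between the tissues, 3 for oviductal culture, 2 for Cas9-GFP, 0 for clones and 0 for mes against epi, as without it; over all genes the block called 148 for clones and 240 for mes against epi. In oviductal against OSE organoids and mes against epi the smallest groups held 2 libraries, and TBP clone 1, with its floor of 33.5 CPM, limits what could be seen in clones.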
